A study of Mus musculus with 10 samples.

Results

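The germinal center identity transcription factors described here are 10 mouse genes, Bcl6, Bach2, Irf4, Irf8, Pax5, Ebf1, Mef2b, Mef2c, Spib and Spi1. They were taken by symbol from a list of names, and all 10 were found among the 55421 genes of the count table and passed the filter on low counts. RNA was sequenced from B cells of the spleen of C57BL/6 mice aged 8 to 10 weeks, taken 10 days after immunization and enriched with magnetic beads that carry peanut agglutinin (PNA), a lectin that binds germinal center B cells. The HOMO libraries are labelled Pbrm1-/-, the WT libraries Pbrm1+/+, and each genotype has a CC and a CB fraction, giving HOMO CC (n = 2), HOMO CB (n = 2), WT CC (n = 3) and WT CB (n = 3). PBRM1 is a subunit of the PBAF chromatin remodeling complex, and the design asks what its loss does in each fraction and how the fractions differ. In this field CC and CB stand for centrocytes and centroblasts; the labels use only the letters and do not say how the fractions were separated. They name neither the immunogen nor, for the mutant, a Cre driver or the cells in which the gene is lost. The count columns of both genotypes begin with the letters Pbrm1AID, and what AID stands for there was not interpreted. The WT libraries are numbered 1, 2 and 3. The HOMO libraries are called 2 and 3 here, after the columns of the table, which use the same numbers in both fractions, while the sample titles number them 1 and 2. No label says whether a number marks a shared source, so HOMO libraries were not paired across fractions.

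In a germinal center, B cells divide and mutate their antibody genes in the dark zone as centroblasts and are selected in the light zone as centrocytes, moving between both. BCL6 is the repressor that sets up and keeps this state, and BACH2 holds back differentiation to plasma cells. IRF4 has opposite roles at low and high amounts, being needed early in the response and again, at high amounts, for plasma cells, while IRF8 helps keep the germinal center state. PAX5 and EBF1 hold B cell identity by activating genes such as those of the B cell receptor. MEF2B activates Bcl6, and MEF2C supports B cell proliferation after receptor signals. SPIB and PU.1, the product of Spi1, are related ETS factors that bind composite DNA sites together with IRF4 or IRF8.

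The libraries held between 9954006 and 67625110 counts assigned to genes, and pairs within a group differed by more than sampling noise. Pbrm1 itself had 152 and 150.4 CPM (counts scaled to library size by the TMM method) in HOMO CC and 178 and 164 in HOMO CB, against 239, 239 and 250.3 in WT CC and 319, 309 and 312 in WT CB. It was lower in all 4 HOMO libraries but not absent, and gene counts do not show which exons were read. Cxcr4, a dark zone receptor, had 69.8 to 111 CPM in the 5 CC libraries against 243 to 364 in the 5 CB libraries, and Cd83, a light zone marker, 311 to 389 CPM in CC against 127 to 157 in CB, so the fractions carried the markers their letters stand for. The 7 germinal center B cell markers were above 0 in all 10 libraries and summed to 6052 to 6362 CPM in HOMO CC, 7863 to 8037 in HOMO CB, 5351 to 5589 in WT CC and 6761 to 7785 in WT CB. The 9 macrophage markers summed to 20.3 to 25.2 CPM in HOMO CC and 8.9 to 10.5 in HOMO CB, but to 667, 161 and 38.5 in libraries 1, 2 and 3 of WT CC and 10.5 to 18.2 in WT CB. The 8 neutrophil markers summed to 129 and 160 CPM in HOMO CC and HOMO CB library 2, and to 15 or less in the other 8 libraries, so the high sums carried the same column number in both fractions. The 5 naive B cell markers summed to 359 to 402 CPM in HOMO CC and 173 to 182 in HOMO CB, against 407 to 429 in WT CC and 190 to 205 in WT CB. The 6 T cell markers summed to 115 to 127 CPM in HOMO CC and 66.2 to 72.7 in HOMO CB. In WT they summed to 157 to 225 in CC and 78.4 to 117 in CB. In WT CC libraries 1 and 2, with sums of 157 and 225, 2 of the 6 T cell markers had no counts. Cd3e had 1.77 and 1.42 CPM in HOMO CC, against 0.205, 0 and 1.61 in WT CC. It had 0.549 and 0.79 in HOMO CB, against 0.0394, 0 and 0.903 in WT CB. The T cell sums thus did not follow Cd3e between genotypes. The 6 dendritic cell markers summed to 31.1 to 53.4 CPM over all libraries. Xist, transcribed from the inactive X chromosome of female cells, had 2022 to 2884 CPM in the HOMO libraries and 2386 and 2668 in WT library 3 of CC and CB, but 708 and 84.5 in WT CC and 467 and 72.5 in WT CB libraries 1 and 2; the labels give no sex. Whether replicates are separate animals is not in the labels, so the p-values cover only how much these libraries vary, and that variation may be technical. In bulk RNA, fewer cells of a type and less RNA per cell cannot be told apart.

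Promoters are shown for Bach2, Ebf1 and Spib because they passed the test between CC and CB in WT, for Irf4 because its level ranged most, and for Bcl6 because it held the most matches, as the 250 bases before a RefSeq transcription start (GRCm38.p6, 5′ to 3′ on the gene's strand). Bach2, Bcl6 and Ebf1 hold letters that fit factors of the same group, and Irf4 and Spib hold none of those searched. Capitals mark every match.
Bach2 chr4:32417185-32417434, plus strand: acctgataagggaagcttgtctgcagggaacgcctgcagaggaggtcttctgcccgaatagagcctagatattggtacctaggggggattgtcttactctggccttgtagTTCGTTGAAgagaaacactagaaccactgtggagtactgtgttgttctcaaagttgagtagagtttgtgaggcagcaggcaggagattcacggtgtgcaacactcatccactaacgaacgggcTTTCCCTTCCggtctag
Bcl6 chr16:23981284-23981533, minus strand: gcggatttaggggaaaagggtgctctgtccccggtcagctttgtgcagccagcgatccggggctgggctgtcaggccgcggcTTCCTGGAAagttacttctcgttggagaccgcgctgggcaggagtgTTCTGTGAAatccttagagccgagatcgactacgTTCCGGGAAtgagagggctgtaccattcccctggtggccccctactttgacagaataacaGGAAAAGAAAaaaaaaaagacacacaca
Ebf1 chr11:44617850-44618099, plus strand: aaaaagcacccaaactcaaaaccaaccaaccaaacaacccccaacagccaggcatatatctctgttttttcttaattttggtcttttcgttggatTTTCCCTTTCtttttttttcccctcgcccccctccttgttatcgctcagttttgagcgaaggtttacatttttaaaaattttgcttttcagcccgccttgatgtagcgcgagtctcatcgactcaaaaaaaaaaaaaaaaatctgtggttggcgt
Irf4 chr13:30748983-30749232, plus strand: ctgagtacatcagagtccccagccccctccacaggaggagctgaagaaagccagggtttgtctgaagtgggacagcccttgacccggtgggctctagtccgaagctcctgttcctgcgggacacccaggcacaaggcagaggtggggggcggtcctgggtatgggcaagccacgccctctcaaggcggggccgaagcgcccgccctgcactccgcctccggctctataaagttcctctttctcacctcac
Spib chr7:44532072-44532321, minus strand: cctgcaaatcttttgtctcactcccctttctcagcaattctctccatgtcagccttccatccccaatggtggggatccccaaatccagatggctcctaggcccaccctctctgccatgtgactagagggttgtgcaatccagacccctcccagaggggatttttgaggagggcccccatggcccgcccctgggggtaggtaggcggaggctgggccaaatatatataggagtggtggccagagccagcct
Windows of 14 starts of 9 members were searched on both strands. GGAANNGAAA, the composite of ETS and IRF factors, was found at Bach2 and at the Bcl6 start shown, and in 2.3% of 32851 promoters. GAAANNGAAA, a tandem IRF element, was found at 1 Ebf1 start and in 2.98% of promoters. TTCNNNGAA, which reads the same on both strands and fits BCL6 and STAT factors, was found at 5 of the 14 starts, in Bach2, Bcl6, Irf8 and Mef2c, and in 7.02% of promoters, with 3 matches at the Bcl6 start shown. TCCCNNGGGA (EBF1, 0.779% of promoters), TGACTCA (BACH2 and AP-1 type, 4.46%) and the MEF2 motif (2.92%) were at none of the 14 starts. No match in the sequences shown overlapped a match to a different motif. A match describes letters and not binding.

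Per kilobase of gene length, so that genes can be compared, Spib had the highest and Irf4 the lowest level in all 4 groups. The Spib level was 184 ± 1.53 RPKM (CPM per kilobase) in HOMO CC and 202 ± 7.37 in HOMO CB (SD, n = 2 each), and 180 ± 21.7 in WT CC and 237 ± 36.6 in WT CB (SD, n = 3 each). The Irf4 level was 19 ± 1.35 RPKM in HOMO CC and 10 ± 0.312 in HOMO CB (SD, n = 2 each), and 20 ± 8.01 in WT CC and 10.2 ± 4.61 in WT CB (SD, n = 3 each). Spi1 was next to lowest, with 20.7 RPKM in HOMO CC, 24.1 in HOMO CB, 25.1 in WT CC and 31.8 in WT CB, and its libraries overlapped those of Irf4 in WT CC. In HOMO CC the order below Spib was Pax5, Mef2b, Bach2, Irf8, Bcl6, Mef2c, Ebf1, Spi1, and no neighbours overlapped. In HOMO CB it was Bach2, Pax5, Mef2b, Bcl6, Irf8, Mef2c, Ebf1, Spi1, with an overlap of Irf8 and Mef2c. In WT CC it was Mef2b, Pax5, Irf8, Bach2, Bcl6, Ebf1, Mef2c, Spi1, and libraries overlapped between Spib and Mef2b, Irf8 and Bach2, and Bcl6 and Ebf1. In WT CB it was Pax5, Bach2, Mef2b, Bcl6, Irf8, Mef2c, Ebf1, Spi1, where Pax5, Bach2 and Mef2b overlapped in turn, as did Bcl6 with Irf8, and Mef2c, Ebf1 and Spi1 in turn. Bach2 was at 77.5 RPKM in HOMO CC and 143 in HOMO CB, where only Spib was above it, while Pax5 stayed between 110 and 126 RPKM in all 4 group means.

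**Figure D1:**
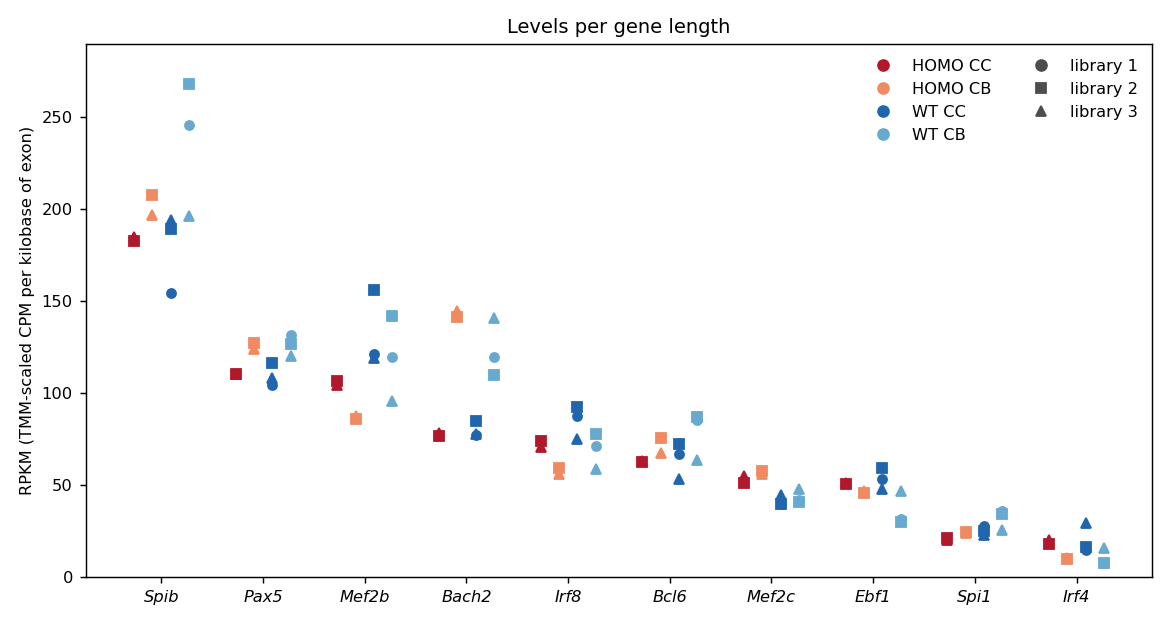
Level per gene length (RPKM, linear axis from 0) of the 10 members, 1 point per library, coloured by group and shaped by library number, in order of the mean over libraries. Spib lies above and Irf4 at the bottom, at 184 and 19 RPKM on average in HOMO CC, 202 and 10 in HOMO CB, 180 and 20 in WT CC and 237 and 10.2 in WT CB.

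The members differed in how far their level ranged over the libraries. Irf4 spanned 3.86-fold between its highest library, WT CC 3, and its lowest, WT CB 1. Ebf1 spanned 1.97-fold and Bach2 1.88-fold, and Mef2b, Spi1, Spib, Irf8, Bcl6 and Mef2c between 1.46-fold and 1.81-fold. Pax5, at 1.26-fold, ranged least. Counts behind these values were at least 576 in every library, for Spi1 in HOMO CC 3, so counting error is small beside these spans. This does not extend to the spread within a group, which was narrow in HOMO.

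**Figure D2:**
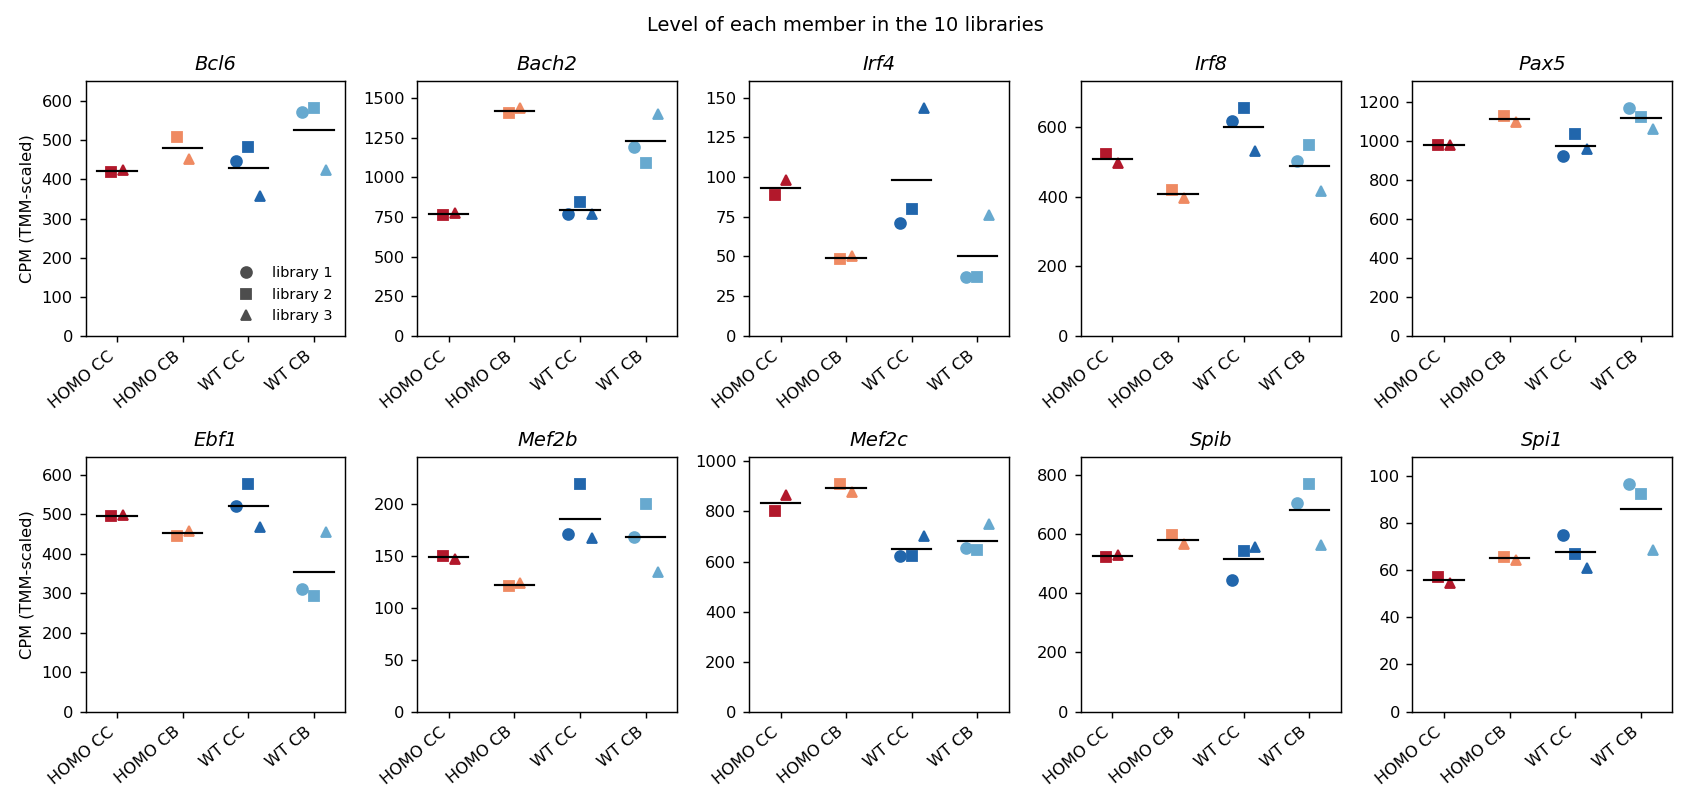
CPM (TMM-scaled, linear axis from 0) of each member in every library, 1 point per library, shaped by library number, with a bar at the group mean. Bach2 is lower in every CC library (764 to 846) than in every CB library (1090.1 to 1436), and WT library 3 (triangle) lies apart from WT libraries 1 and 2 for Irf4, with 143 CPM in CC and 76.3 in CB.

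Between CC and CB in WT, 3 of the 10 members passed edgeR's quasi-likelihood test at a Benjamini-Hochberg adjusted p under 0.05: Ebf1 was higher in CC, and Bach2 and Spib were lower. Over all 16596 genes tested, 11.6% were called higher and 12.3% lower, so 1 of 10 higher and 2 of 10 lower is near the background. The members' median log2 change was -0.14, against 0.01 over all genes. Libraries did not overlap for Ebf1 (higher) and Bach2, Spib and Pax5 (lower), or 4 of 10 members, where 34.4% of all genes did not overlap.

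Bach2 (ENSMUSG00000040270.16, mm10 chr4:32238804-32586108, plus strand), the brake on plasma cell differentiation, had 770.0, 846 and 772 CPM in WT CC against 1192, 1090.1 and 1402 in WT CB. Every WT CC library lay below every WT CB library. The log2 change was -0.63 (SE 0.1, edgeR adjusted p = 0.00176), and Bach2 passed in all 21 alternatives. Within WT numbers 1, 2 and 3 it was -0.63, -0.37 and -0.86. Of its exon bases 5.4% are shared with the antisense gene Bach2os, which had 157 counts over all libraries against 355372 for Bach2; whether counting used strand is not given in the sources used here.

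Ebf1 (ENSMUSG00000057098.14, chr11:44617317-45008091, plus strand), which with PAX5 holds B cell identity, had 519.9, 576 and 468 CPM in WT CC against 309.8, 293 and 455 in WT CB. The log2 change was 0.56 (SE 0.15, edgeR adjusted p = 0.0203). The groups were apart, but only just: WT CC 3 and WT CB 3 were close, and the change within WT numbers 1, 2 and 3 was 0.75, 0.98 and 0.04. The call rested on numbers 1 and 2, with an adjusted p of 0.178 without number 1, 0.201 without number 2 and 2.45e-07 without number 3. Leaving out any 1 of the 4 libraries of numbers 1 and 2 gave 0.0559 to 0.0895, and fitting the WT libraries alone 0.0636. Spib (ENSMUSG00000008193.13, chr7:44525993-44532071, minus strand), an ETS partner of IRF4 and IRF8, had 444, 544 and 558 CPM in WT CC against 706, 769 and 564 in WT CB. Its log2 change was -0.4 (SE 0.12, edgeR adjusted p = 0.0376). All 3 WT CC libraries were lower, and again number 3 showed almost no difference, the change being -0.67, -0.5 and -0.02 within numbers 1, 2 and 3. It lost the call without any 1 of the 4 HOMO libraries (adjusted p 0.0507 to 0.0612), without number 1 (0.325), without number 2 (0.184), without any 1 library of these numbers (0.0714 to 0.145), with upper-quartile scaling (0.0644) and with the WT libraries alone (0.108).

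Irf4 (ENSMUSG00000021356.10, chr13:30749226-30766976, plus strand), the factor needed at high amounts for plasma cells, had 71.3, 80.1 and 143 CPM in WT CC against 37.1, 37.3 and 76.3 in WT CB. The log2 change was 0.96 (SE 0.33, edgeR adjusted p = 0.066) and missed the threshold. WT CB 3 was above WT CC 1, so the groups overlapped, yet within numbers 1, 2 and 3 the change was 0.94, 1.1 and 0.91. With the WT number as a replicate block, which compares fractions within a number, the log2 change of Irf4 was 0.98 (SE 0.073, edgeR adjusted p = 7e-06). The numbers were taken as pairs because same-numbered WT libraries deviated together from their group means, in these same data and without a label. Numbers 1 and 2 were not clearly told apart. The correlation was 0.301 for number 1 with itself and 0.278 for WT CC 2 with WT CB 1. P-values under the block rest on this choice. Under that block 8 of 10 members passed, all but Mef2b and Mef2c, where 35.4% of all genes were called. With the block as a random term (estimated correlation 0.307, limma), 7 of 10 passed, Bcl6 no longer among them, where 33.6% of all genes were called.

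Among those passing under the block, Irf8 (ENSMUSG00000041515.10, chr8:120736358-120756694, plus strand), a keeper of the germinal center state, had 616, 653 and 529.5 CPM in WT CC against 502, 549 and 415 in WT CB. Its change within the numbers was 0.3, 0.25 and 0.35 (edgeR adjusted p = 0.0869 without and 0.00318 with the block). The germinal center repressor Bcl6 (ENSMUSG00000022508.5, chr16:23965052-23988852, minus strand) had 447, 483 and 357 CPM in WT CC against 572, 582 and 425 in WT CB. It was lower in CC in each number, by a log2 change of -0.36, -0.27 and -0.25 (edgeR adjusted p = 0.153 without and 0.00548 with the fixed block). With the random block its change was -0.28 and missed the threshold (limma adjusted p = 0.0544). For both genes the groups overlapped only through library 3, which was the lowest of its group in CC and in CB.

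Pax5 (ENSMUSG00000014030.15, chr4:44524757-44710487, minus strand), the B cell commitment factor, had 923, 1032 and 957 CPM in WT CC against 1166, 1120.2 and 1062 in WT CB. The groups did not overlap, and the change of -0.2 gave an edgeR adjusted p of 0.103 without and 0.0305 with the block. Of its exon bases 7.18% are shared with 5730488B01Rik on the opposite strand, which had 583 counts against 318568 for Pax5. Spi1 (ENSMUSG00000002111.8, chr2:91082390-91115756, plus strand), which encodes PU.1, had 75, 66.7 and 61.1 CPM in WT CC against 96.5, 92.2 and 68.5 in WT CB (log2 change -0.34, edgeR adjusted p = 0.0818 without and 0.0056 with the block). PU.1 is also a macrophage factor, and the WT CC libraries fell in the same order for Spi1 as for the summed macrophage markers; their part in the result was not tested.

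The MADS box factors showed little difference between fractions. Mef2b (ENSMUSG00000079033.10, chr8:70139711-70167488, plus strand) had 170.3, 219 and 167 CPM in WT CC against 168, 199.7 and 135 in WT CB (log2 change 0.15 ± 0.14, SE, with an edgeR adjusted p of 0.506). Mef2b shares 4.42% of its exon bases with Borcs8 on the same strand, which had 8973 counts against 45207 for Mef2b. Mef2c (ENSMUSG00000005583.16, chr13:83504034-83667080, plus strand) had 622, 624 and 701 CPM in WT CC against 655, 644 and 752 in WT CB (log2 change -0.07, SE 0.093, edgeR adjusted p = 0.612). For both genes the groups overlapped widely.

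**Figure D3:**
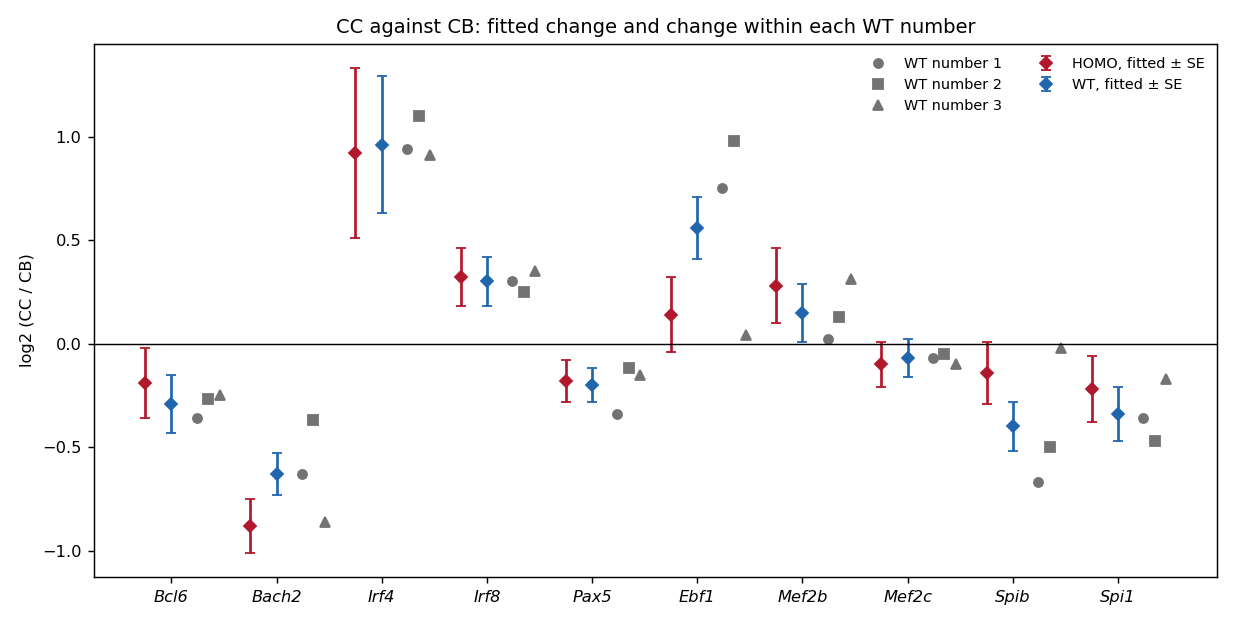
Log2 change of CC over CB for each member: red and blue diamonds are the fitted changes in HOMO and WT with bars of 1 SE, and grey points the changes within WT numbers 1, 2 and 3. Irf4 lies between 0.91 and 1.1 in all 3 WT numbers although its WT bar is wide, while Ebf1 and Spib are near 0 in WT number 3, at 0.04 and -0.02.

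Between CC and CB in HOMO, 1 of the 10 members passed, Bach2, where 2.46% of all genes were called higher and 2.98% lower. Bach2 had 764 and 777 CPM in HOMO CC against 1405 and 1436 in HOMO CB. The fractions lay far apart, at log2 -0.88 (SE 0.13, edgeR adjusted p = 0.00236), and without HOMO CC 2 the adjusted p was 0.0531 at the same change of -0.88. Irf4 had 88.6 and 97.9 CPM in HOMO CC against 48.1 and 50.3 in HOMO CB (log2 change 0.92 ± 0.41, SE, with an edgeR adjusted p of 0.258). Its replicates were close within each fraction, and the SE reflects the spread that the fit shares with WT.

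Irf8 had 521 and 497 CPM in HOMO CC against 418 and 397 in HOMO CB, with a log2 change of 0.32 (edgeR adjusted p = 0.242). Mef2b had 149.6 and 147 CPM in HOMO CC against 121 and 123 in HOMO CB (log2 change 0.28, edgeR adjusted p = 0.442). Fitted with the WT numbers as a replicate block, which takes the spread between those numbers out of the shared error, 4 of 10 members passed in HOMO, namely Bach2, Irf4, Irf8 and Mef2b, where 13.8% of all genes were called. With the random block 1 of 10 passed, Bach2, where 4.99% of all genes were called, and the limma adjusted p was 0.204 for Irf4, 0.199 for Irf8 and 0.437 for Mef2b. Libraries of CC and CB did not overlap in HOMO for any of the 10 members, but with 2 against 2 libraries this held for 62.0% of all genes. Ebf1 had 495 and 498 CPM in HOMO CC against 444 and 458 in HOMO CB (log2 change 0.14), and Spib had 524 and 529.8 in HOMO CC against 595 and 565 in HOMO CB (log2 change -0.14). Both were far closer between the fractions than in WT numbers 1 and 2 and resembled WT number 3. Bcl6, Pax5, Spi1 and Mef2c changed by between -0.22 and -0.1 on the log2 scale without passing.

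The difference between the fraction effects of HOMO and WT, the interaction, passed for 0 of 10 members and for 0.0% of genes by edgeR. At an unadjusted p under 0.05 there were 0 members and 434 of 16596 genes, and DESeq2 also called 0 genes. The largest values were those of Ebf1 (log2 difference -0.43, SE 0.24), Spib (0.26, SE 0.2) and Bach2 (-0.26, SE 0.16), each with an edgeR adjusted p of 1.0. Without WT number 3, 3 of 10 members passed, where 8.98% of all genes were called. These were Ebf1 (-0.73, edgeR adjusted p = 0.000512), Bach2 (-0.38, 0.0265) and Spib (0.44, 0.0388). With all libraries, the interaction rose with the GC content of the transcript over the 10 members, at a Spearman's rho of 0.857. With an offset for GC content fitted per library it was 0.845. The part of GC content in the interaction was not tested.

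Between HOMO and WT, 0 of the 10 members passed in CC and 0 in CB by edgeR, where 0.0% of genes were called in CC and 0.0241%, or 4 genes, in CB. At an unadjusted p under 0.05 there was 1 member in CC and there were 3 in CB, against 3142 and 2079 genes. DESeq2 called 1 member, Mef2c, in CC (log2 change 0.37, DESeq2 adjusted p = 0.0291) and in CB (0.39, DESeq2 adjusted p = 0.0309), where it called 5.83% and 2.29% of genes. Libraries did not overlap for 4 of 10 members in CC and 4 of 10 in CB, near the 35.2% of all genes in CC and 35.2% in CB.

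Mef2c, the MADS box factor of B cell proliferation, had 802 and 867 CPM in HOMO CC and 909.7 and 879 in HOMO CB, against 622, 624 and 701 in WT CC and 655, 644 and 752 in WT CB. In each fraction HOMO was above WT without overlap, where 35.2% of all genes in CC and 35.2% in CB did not overlap. The log2 change was 0.36 in CC (SE 0.1, edgeR adjusted p = 0.137) and 0.39 in CB (SE 0.1, edgeR adjusted p = 0.243). Its relative Mef2b, an activator of Bcl6, went the other way, with 149.6 and 147 CPM in HOMO CC and 121 and 123 in HOMO CB, against 170.3, 219 and 167 in WT CC and 168, 199.7 and 135 in WT CB. HOMO was lower in each fraction without overlap (log2 change -0.32 in CC, edgeR adjusted p = 0.306, and -0.46 in CB, 0.329).

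Spi1 had 57.2 and 54.7 CPM in HOMO CC and 65.7 and 64.5 in HOMO CB, against 75, 66.7 and 61.1 in WT CC and 96.5, 92.2 and 68.5 in WT CB. These were lower in HOMO without overlap in each fraction (log2 change -0.27 in CC, edgeR adjusted p = 0.337, and -0.4 in CB, 0.341). The summed macrophage markers were lower in HOMO too, at 20.3 to 25.2 CPM in CC against 38.5 to 667 in WT. In CB they were at 8.9 to 10.52 CPM in HOMO against 10.55 to 18.2 in WT. Their part in the change of Spi1 was not tested. Irf8 had 521 and 497 CPM in HOMO CC against 529.5 to 653 in WT CC, and 418 and 397 in HOMO CB against 415 to 549 in WT CB (log2 change -0.24 in CC, edgeR adjusted p = 0.343, and -0.26 in CB, 0.429). It lay below every WT library in CC, and in CB overlapped WT library 3. Bach2 had 1405 and 1436 CPM in HOMO CB against 1090.1 to 1402 in WT CB (log2 change 0.21, edgeR adjusted p = 0.463). Both HOMO CB libraries were above every WT CB library, the lower one only just above WT CB 3. In HOMO CC Bach2 had 764 and 777 CPM against 770.0 to 846 in WT CC (log2 change -0.05). For Bcl6, Irf4, Pax5, Ebf1 and Spib the genotypes overlapped in both fractions, with log2 changes between -0.23 and 0.36 in CB and between -0.07 and 0.03 in CC.

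WT library 3 decided much of this comparison. For Irf4 the mean of the HOMO libraries over WT 1, 2 and 3 was 0.39, 0.22 and -0.62 in CC and 0.41, 0.4 and -0.63 in CB on the log2 scale. For Ebf1 in CB it was 0.54, 0.63 and -0.01, and for Mef2c 0.42, 0.42 and 0.25 in CC and 0.45, 0.47 and 0.25 in CB. Prdm1, which encodes the plasma cell factor BLIMP1 and is repressed by BCL6 and BACH2, had 7.93 and 6.83 CPM in HOMO CC and 4.87 and 3.74 in HOMO CB, against 5.63, 6.73 and 14.2 in WT CC and 2.01, 2.61 and 6.93 in WT CB. Library 3 was thus the highest WT library for Prdm1 as for Irf4.

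**Figure D4:**
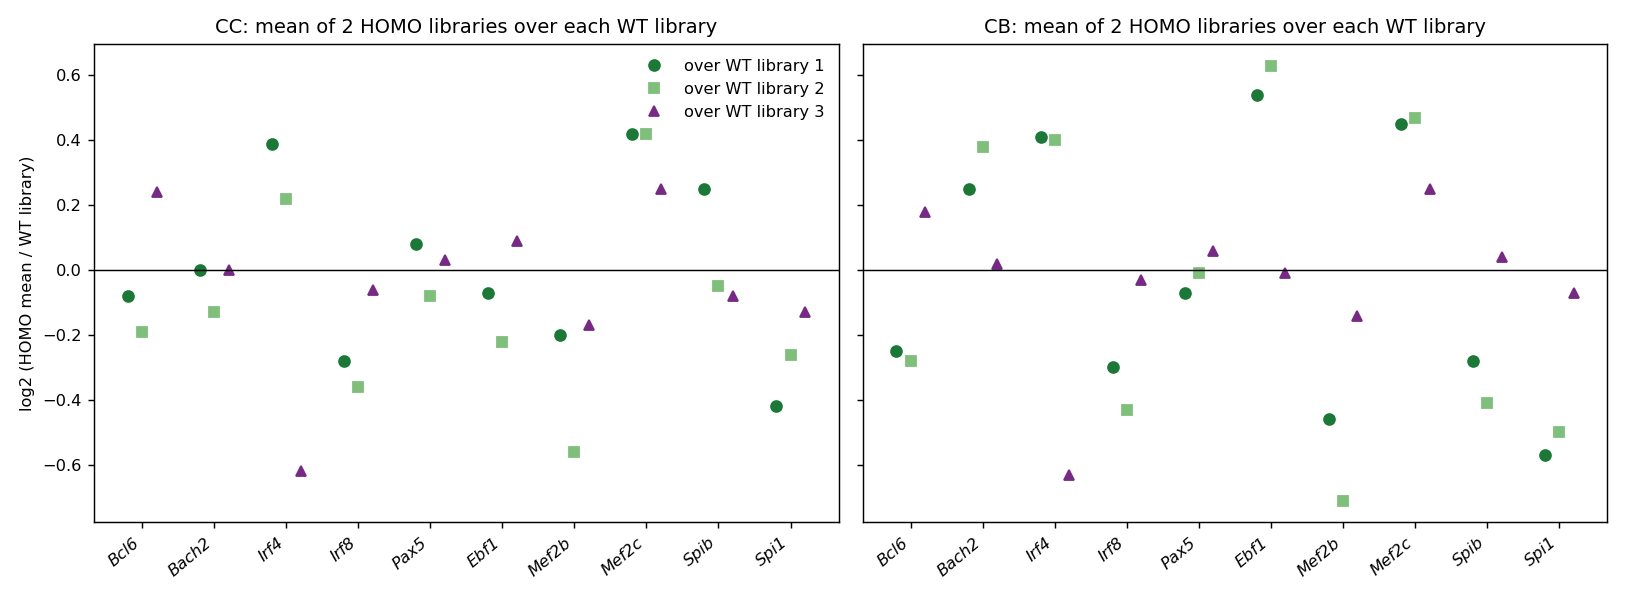
Log2 ratio of the mean CPM of the 2 HOMO libraries to each WT library, CC on the left and CB on the right, for each member; points above 0 are higher in HOMO. Irf4 lies above 0 against WT libraries 1 and 2 (0.39 and 0.22 in CC, 0.41 and 0.4 in CB) and below 0 against WT library 3 (-0.62 and -0.63).

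Without WT number 3 in both fractions, 5 of 10 members passed between HOMO and WT in CC and 9 of 10 in CB, where 31.3% and 30.4% of all genes were called. In CC, Irf4 (log2 change 0.33, edgeR adjusted p = 0.00732) and Mef2c (0.45, 0.000122) were then higher in HOMO, and Irf8, Mef2b and Spi1 were lower. In CB all members but Pax5 passed: Bach2, Ebf1, Mef2c and Irf4 (0.43, 0.00138) were higher in HOMO, and Bcl6, Irf8, Mef2b, Spib and Spi1 were lower. The direction of Irf4 turned, since it was -0.07 in CC and -0.04 in CB with number 3. WT libraries 1 and 2 also differed from WT library 3 and HOMO in Xist, as given above. In the trend of counts with GC content, WT library 3 was near HOMO in CB. In CC it lay between HOMO and WT libraries 1 and 2. Without WT number 3, the WT libraries had 72.5 to 708 CPM of Xist and the HOMO libraries 2022 to 2884. Genotype and the Xist difference cannot be told apart in fits that leave out WT number 3. The part of GC content in the result was not tested.

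The GC content of a gene's transcript moved with the change of the members between genotypes. Mef2c, with 40.78% GC, and Ebf1, with 43.05%, had the most positive changes in CB, and Mef2b, with 64.16%, and Spi1, with 58.9%, the most negative. Over the 10 members Spearman's rho of GC content and log2 change was -0.952 in CB and -0.523 in CC, as a description of 10 genes measured in the same libraries. Across 8642 genes, the rank correlation of GC content with a library's deviation was -0.174 and -0.224 in HOMO CC and -0.632 and -0.605 in HOMO CB, against 0.43, 0.552 and 0.151 in WT CC and 0.152, 0.25 and -0.458 in WT CB, so WT CB 3 stood with HOMO CB. With an offset for GC content fitted per library, the changes shrank for Mef2c to 0.12 in CC and 0.15 in CB, for Mef2b to -0.04 and -0.12, and for Spi1 to -0.02 and -0.12. Irf8 also came closer to 0, at -0.16 in CC and -0.15 in CB against -0.24 and -0.26 without the offset, while Bach2 in CB was at 0.24 against 0.21. Others moved away from 0 in CC: Ebf1 had -0.25 with the offset against -0.07 without it, and Spib 0.19 against 0.03. No member passed with the offset, and the rho of GC content and change over the 10 members was then -0.693 in CB and 0.128 in CC.

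With the GC offset and without WT number 3 together, a fit chosen after seeing the data, 4 of 10 members passed in CC and 4 of 10 in CB, where 22.6% and 16.7% of all genes were called. Irf4 was higher in HOMO in CC (log2 change 0.26, edgeR adjusted p = 0.0383) and in CB (0.44, 0.00282), and Irf8 lower in CC (-0.21, 0.0169) and in CB (-0.19, 0.0337). Ebf1 was lower in CC (-0.36, 0.00229) and higher in CB (0.42, 0.00101), Spib was higher in CC (0.31, 0.00971), and Bach2 was higher in CB (0.4, 0.00126). Mef2c, Mef2b and Spi1 did not pass in that fit.

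**Figure D5:**
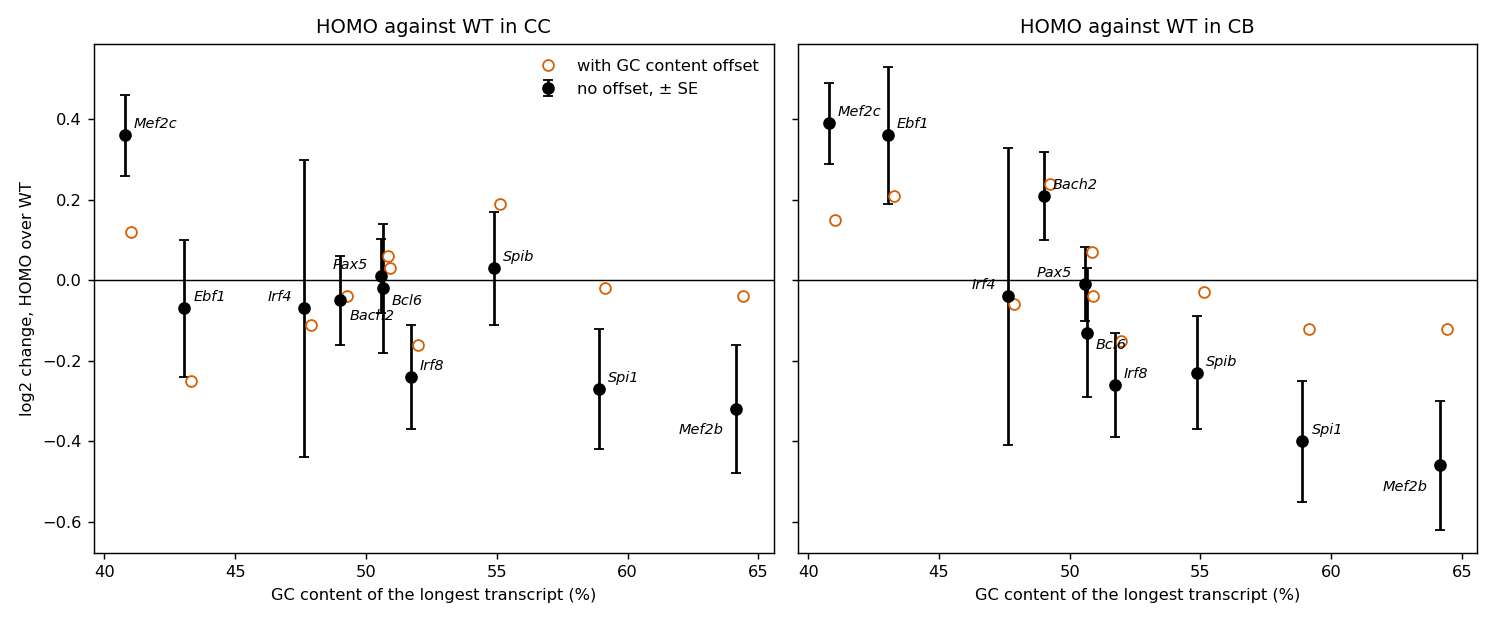
Log2 change of HOMO over WT in CC (left) and CB (right) against the GC content of each member's transcript in percent; filled points with bars of 1 SE are without, and open points, drawn slightly to the right, with the GC content offset. In CB the filled points run from Mef2c at 0.39 down to Mef2b at -0.46, and the offset brings these to 0.15 and -0.12.

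Ratios of relatives within a library put the shifts in balance side by side, as ratios of RPKM. Irf4 to Irf8, which compete for the same ETS partners, was 0.245 and 0.284 in HOMO CC and 0.166 and 0.182 in HOMO CB, against 0.166, 0.176 and 0.389 in WT CC and 0.106, 0.0979 and 0.265 in WT CB. It was higher in CC than in CB in HOMO and within each WT number, and WT library 3 was the highest in each fraction. Bach2 to Irf4, a brake on and a driver of plasma cell fate, was 4.25 and 3.91 in HOMO CC and 14.4 and 14.1 in HOMO CB, against 5.33, 5.21 and 2.66 in WT CC and 15.9, 14.4 and 9.06 in WT CB. The fractions did not overlap for this ratio, and the genotypes did. Mef2b to Mef2c was 2.09 and 1.9 in HOMO CC and 1.49 and 1.57 in HOMO CB, against 3.07, 3.93 and 2.67 in WT CC and 2.87, 3.47 and 2.01 in WT CB, lower in HOMO without overlap in each fraction. That ratio joins the members with the lowest and the highest GC content. Spib to Spi1 was 8.6 and 9.11 in HOMO CC and 8.52 and 8.24 in HOMO CB, against 5.56, 7.65 and 8.58 in WT CC and 6.87, 7.84 and 7.74 in WT CB, and Spib was the more abundant of both in every library.

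For each member the genes with the most similar pattern over the 10 libraries were found by Pearson's r of log2(CPM + 1) among 8880 genes; all share the libraries, their GC trends and the difference of WT library 3. Bcl6 was most like Padi2 (r = 0.982) and Dnmt1 (0.977), Bach2 like Gxylt1 (0.981) and Rere (0.978), and Irf4 like Sub1 (0.988) and Rilpl2 (0.985). Irf8 was most like Unc93b1 (0.993) and its relative Irf5 (0.99), and Pax5 like Trappc10 (0.959). Ebf1 was most like Baz2b (0.98) and Btbd9 (0.972), Spib like Emd (0.984) and Ptbp1 (0.978), and Spi1 like Ppm1g (0.988) and Ube2j2 (0.984). Mef2b was most like Dalrd3 (0.978) and Dcaf11 (0.975), and Mef2c like Erbin (0.979). No other member was among these genes.

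Of 15 family relatives 11 were tested, and between CC and CB in WT 2 were higher and 1 was lower, near the 11.6% and 12.3% of all genes, with a median log2 change of 0.17 against 0.01 over all genes. Irf5, an IRF of inflammatory signalling, averaged 219 ± 32.6 CPM in WT CC and 162 ± 29.3 in WT CB (SD, n = 3 each; log2 change 0.43, edgeR adjusted p = 0.0437). Irf2, an IRF best known as a brake on interferon genes, averaged 116 ± 4.33 CPM in WT CC and 155 ± 3.11 in WT CB (log2 change -0.42, edgeR adjusted p = 0.00333). Spic, an ETS relative of Spi1 and Spib that is a factor of red pulp macrophages, had 29.4, 5.64 and 1.05 CPM in WT CC, in the order of library number, against 0.315, 0.103 and 0.0623 in WT CB. It followed the summed macrophage markers across WT CC, whose part in the result was not tested. None of the 11 passed between CC and CB in HOMO, where 2.46% of all genes were higher and 2.98% lower; Irf2 had a log2 change of -0.32 (edgeR adjusted p = 0.0754) and Irf5 of 0.37 (0.264).

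Of 18 protein partners 16 were tested, and 4 were higher and 0 lower in CC than in CB in WT, where 11.6% of all genes were higher and 12.3% lower. Batf, the AP-1 factor that joins IRF4 and IRF8 on DNA, averaged 13.9 ± 1.34 CPM in HOMO CC and 5.08 ± 0.61 in HOMO CB (log2 change 1.45, edgeR adjusted p = 0.00135), and 14 ± 0.3 in WT CC and 6.34 ± 0.56 in WT CB (1.14, 0.000496). Mafg, a small MAF partner of BACH proteins, was among the others and rose by 0.6 (edgeR adjusted p = 0.0143), and Hdac7, a partner of MEF2 factors, by 0.46 (0.0159) on the log2 scale. In HOMO, Batf was the 1 partner of 16 that passed, near the 2.46% of all genes called higher. The median log2 change of the partners was -0.01 in HOMO and 0.09 in WT, against -0.01 and 0.01 over all genes.

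Of 15 genes known to be repressed by BCL6, 14 were tested, and 3 were higher and 0 lower in CC than in CB in WT, beside 11.6% and 12.3% of all genes. Ccnd2, which encodes cyclin D2, averaged 61.7 ± 4.29 CPM in HOMO CC and 8.05 ± 0.11 in HOMO CB (log2 change 2.94, edgeR adjusted p = 0.025), and 58.5 ± 9.5 in WT CC and 4.94 ± 4.2 in WT CB (3.49, 0.002). Nfkb1, an NF-kB subunit, was higher in CC by a log2 change of 0.41 in HOMO (edgeR adjusted p = 0.036) and 0.42 in WT (0.00403). Bcl2, a survival factor, had 8.63, 6.68 and 16.3 CPM in WT CC against 1.73, 0.962 and 5.26 in WT CB (log2 change 1.93, edgeR adjusted p = 0.0318). The median log2 change of the list was 0.36 in HOMO, where 2 of 14 were higher beside 2.46% of all genes, and 0.27 in WT, against -0.01 and 0.01 over all genes.

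All 9 genes known to be activated by PAX5 or EBF1 were tested, and in WT 3 were higher and 3 lower in CC than in CB, beside 11.6% and 12.3% of all genes, so the list did not move one way. Cr2, a complement receptor, averaged 850 ± 43.3 CPM in HOMO CC and 473 ± 12.2 in HOMO CB (log2 change 0.84, edgeR adjusted p = 0.00112), and 628 ± 17.5 in WT CC and 359 ± 26.8 in WT CB (0.81, 0.000142). Cd72 (0.92, edgeR adjusted p = 0.00225) and Cd22 (0.58, 0.00603), both inhibitory B cell coreceptors, rose with it in WT, and all 3 rose in HOMO, where 2.46% of all genes were higher. Cd79b, a chain of the B cell receptor, and Blnk, its adaptor, fell by 0.68 and 0.32 on the log2 scale in WT. Of 6 genes known to be repressed by PAX5, all tested, 0 were higher and 1 was lower in CC than in CB in HOMO, and 1 was higher and 2 were lower in WT. Over all genes the shares were 2.46% higher and 2.98% lower in HOMO, and 11.6% and 12.3% in WT, and with 6 genes a count this small is only a description. Jchain, the antibody joining chain, averaged 238 ± 9.95 CPM in HOMO CC and 642 ± 34.7 in HOMO CB (log2 change -1.43, edgeR adjusted p = 0.00663), and 184 ± 66.5 in WT CC and 514 ± 20.2 in WT CB (-1.49, 0.000617). Xbp1, a factor of secretory cells, fell by 0.49 in WT (edgeR adjusted p = 0.00864). Csf1r, a macrophage receptor, had 196, 40.8 and 7.02 CPM in WT CC against 2.92, 0.584 and 1.03 in WT CB, again in the order of the macrophage markers. The 6 plasma cell markers summed to 342 to 361 CPM in HOMO CC and 760 to 818 in HOMO CB. In WT they summed to 236 to 402 in CC and 635 to 676 in CB. On average most of each sum was Jchain. Prdm1, also on this list, went the other way, with 7.93 and 6.83 CPM in HOMO CC against 4.87 and 3.74 in HOMO CB. In WT numbers 1, 2 and 3, Prdm1 had 5.63, 6.73 and 14.2 CPM in CC against 2.01, 2.61 and 6.93 in CB.

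None of these lists had a member that passed between HOMO and WT or in the interaction. The smallest p-values in CC belonged to Spic (log2 change -5.2) and Irf1 (-0.54) among the relatives, Mafk (-0.67) and Hdac4 (-0.36) among the partners, Atr (0.62) and Chek1 (0.24) among the BCL6 targets, Cr2 (0.44) and Cd72 (-0.34) among the genes activated by PAX5 or EBF1, and Csf1r (-5.11) and Jchain (0.38) among those repressed by PAX5. In CB they belonged to Irf3 (-0.37) and Irf1 (-0.48), Hdac9 (0.43) and Hdac5 (-0.35), Atr (0.43) and Chek1 (0.18), Cr2 (0.4) and Cd72 (-0.44), and Jchain (0.32) and Csf1r (-2.21) in the same lists. In the interaction they belonged to Spic (-4.41) and Irf2 (0.1), Batf (0.31) and Bcor (0.24), Trp53 (0.25) and Gpr183 (0.82), Cd79b (0.4) and Cd79a (0.37), and Csf1r (-2.9) and Notch1 (-0.13), all with an edgeR adjusted p of 1.0. The large values of Spic and Csf1r rest on low levels. Spic had 0.427 and 0.19 CPM in HOMO CC, and Csf1r 2.14 and 2.66. Csf1r had 0.623 and 0.146 CPM in HOMO CB against 2.92, 0.584 and 1.03 in WT CB. Both genes followed the summed macrophage markers across WT CC, whose part in these changes was not tested.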

How the data were processed

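Counts per gene were made by the authors and deposited as whole numbers, not normalized; FastQC, STAR, Subread, featureCounts, R 4.2.1 and mm10 are named in the submitters' processing notes, without settings. Per the labels' protocols, ribosomal RNA was removed before library preparation (KAPA kit). No column lacked a group (0 unmatched). Symbols, overlaps and GC content (longest transcript) came from GENCODE M21, in which all 54673 versioned identifiers had the same coordinates. Gene lengths are those deposited.

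Genes were filtered with filterByExpr (minimum count 10, minimum total 15), leaving 16596, and scaled with TMM. The 4 group means were fitted to all 10 libraries with edgeR 4.0.16 (robust quasi-likelihood F-test, R 4.3.3), with Benjamini-Hochberg adjustment over all genes and a threshold of 0.05. An SE is the log2 change divided by the square root of F. DESeq2 1.42.0, limma 3.58.1 (random block), a GC offset (spline with 6 degrees of freedom), other scaling and filters, and leaving out libraries were alternatives. The steps were tested on simulated counts.

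The members and lists were chosen with earlier results of these data known. All members are named. Other lists are represented by up to 4 members with the smallest p that pass, or 2 as values only, and each member by the 2 most similar genes averaging at least 5 CPM. Results of some genes that these rules take are not reported here. WT numbers were checked for pairing over 8805 genes: deviations of same-numbered CC and CB libraries correlated with r = 0.301, 0.426 and 0.436, against -0.411 to 0.278 between numbers. The pairing comes from the data, not from a label.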

Additional observations from a re-analysis of the deposited data

How the results depend on the processing

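Of 1020 values of the 10 members under alternatives, 849 kept their direction and side of the threshold, 87 kept the direction and passed where the reported value did not, 20 no longer passed and 64 changed sign; none that changed sign had passed in the reported fit. Where a call depended on a setting, the cause was not tested. The limit is 2 or 3 libraries a group and WT number 3, which differs from numbers 1 and 2.

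Between HOMO and WT, members called (0 in each fraction) numbered 1 in CC and 1 in CB with DESeq2, 1 in CB with no low-count filter, 5 in CC and 9 in CB without WT number 3, 4 in CC and 4 in CB without it and with the GC offset, and 0 to 1 in CC and 0 to 6 in CB without 1 library. All genes called (0 in CC, 4 in CB) numbered 816 and 277 with DESeq2, 1314 and 590 with no filter, 5035 and 4895 without WT number 3, 3641 and 2684 without it and with the GC offset, and 0 to 2424 and 0 to 1986 without 1 library. In CC they were also 1 with upper-quartile scaling and 2 with the GC offset. In CB they were 0 with the groups compared alone, without WT number 1 or without WT number 2, and 16 with the random replicate block.

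Between CC and CB in HOMO, members called (1) numbered 2 with no filter, 7 with the groups compared alone, 3 without WT number 3, 8 without it and with the GC offset, 4 with the fixed replicate block, and 0 to 1 without 1 library. Genes called (904) numbered 1662 with DESeq2, 1475 with no filter, 4452 with the groups compared alone, 596 without WT number 1, 3706 without number 3, 3231 without it and with the GC offset, 2295 with the fixed replicate block, and 174 to 1586 without 1 library. In WT, members called (3) numbered 6 with DESeq2 or no filter, 1 with the groups compared alone, 5 with the GC offset, 1 without WT number 1 or number 2, 8 without number 3, 9 without it and with the GC offset, 8 with the fixed and 7 with the random replicate block, and 1 to 7 without 1 library. Genes called (3965) numbered 2340 with the groups compared alone, 1010 and 1243 without WT number 1 and number 2, 7404 without number 3, 7262 without it and with the GC offset, and 2099 to 5315 without 1 library. In the interaction 3 members passed without WT number 3, and 3 with the GC offset as well; genes called (0) were 154 with no filter, 1445 without WT number 3, 1555 with the GC offset as well, and 0 to 36 without 1 library.

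The log2 changes that turned sign were as follows. For Irf4, HOMO against WT in CC was 0.328 without WT number 3, 0.258 with the GC offset as well, 0.00359 with the random replicate block and -0.259 to 0.311 without 1 library, and in CB these were 0.433, 0.435, 0.0207 and -0.213 to 0.405. For Pax5 in CC it was -0.0248 without WT number 1 and -0.0242 to 0.0573 without 1 library. In CB it was 0.000849 with DESeq2, 0.0309 with upper-quartile scaling, 0.00644 with the groups compared alone, 0.0723 with the GC offset, 0.0251 without WT number 1, 0.0949 with the GC offset and no WT number 3, and -0.0393 to 0.0275 without 1 library. For Bcl6 in CC it was 0.00203 with no filter, 0.0295 with the GC offset, 0.00606 and 0.0707 without WT number 1 and number 2, and -0.13 to 0.0709 without 1 library. In CC, Ebf1 had 0.00636 without WT number 2 and -0.133 to 0.00654 without 1 library, and Spib -0.0656 without WT number 1 and -0.065 to 0.103 without 1 library. For Mef2c, CC against CB in HOMO was 0.102 with the GC offset and 0.104 also without WT number 3, and in WT 0.137, 0.168 (edgeR adjusted p = 0.0287) and -0.119 to 0.00132 without 1 library. In the interaction, Irf4 had 0.0115 without WT number 2 and -0.475 to 0.359 without 1 library. Irf8 had -0.00917 with the GC offset, -0.00245 without WT number 2, -0.0224 with the GC offset and no WT number 3, and -0.0671 to 0.129 without 1 library. Pax5 had -0.0129 with the GC offset, -0.0499 without WT number 1, -0.0277 with the GC offset and no WT number 3, and -0.0183 to 0.0622 without 1 library. Mef2b had -0.0113 to 0.27 without 1 library, and Mef2c 0.000299 with no filter and -0.0983 to 0.0499 without 1 library. The fixed replicate block could not be fitted for HOMO against WT.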
